A study of Homo sapiens with 6 samples.

Results

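The genes described here encode 40 factors of ribosome production in the nucleolus, and they were taken by symbol from a list of named factors. All 40 were found among the 14456 genes of the deposited table. They were measured by RNA sequencing of polyA-selected libraries from C4-2, a human castration-resistant prostate cancer line derived from LNCaP. One group of 3 libraries came from cells given IPI-9119, an inhibitor of fatty acid synthase, at 100 nM, and the other group of 3 from cells given the solvent DMSO at 0.1%. Treatment with IPI-9119 lasted 6 days, and all cells grew in RPMI medium with fetal bovine serum. This is a single cell line. Nothing in the labels states that replicates were grown separately, so a p-value here reflects only library-to-library spread, possibly of technical origin. The labels give no batch, so any batch difference and the treatment cannot be told apart. A smaller share of cells in one state and less RNA per cell cannot be told apart in such bulk libraries either.

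Ribosomes are built in the nucleolus. RNA polymerase I copies the ribosomal DNA repeats into a long precursor RNA, which small nucleolar ribonucleoproteins (snoRNPs) modify at chosen bases and which large assemblies of processing factors cut, fold and join with ribosomal proteins into the 40S and 60S subunits. Many of these factors are known as targets of MYC, which binds the sequence CACGTG near their start sites, and growing cancer cells, including prostate cancer cells, often have enlarged nucleoli. Ribosomal RNA carries no polyA tail, so the libraries report on the messages of the factors and not on ribosomal RNA output.

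The libraries held 19090749 to 23448035 reads. The 6 markers of C4-2 prostate epithelium used here, KLK3 among them, were all in the table, with a summed level of 195724 to 205969 normalised counts (reads divided by the authors' size factor for the library) with DMSO and 120398 to 126445 with IPI-9119. Of 14 markers of leukocytes, endothelium, fibroblasts and basal epithelium, 3 had a row in the table. Their summed level was 123 to 144 normalised counts with DMSO and 138 to 168 with IPI-9119. The mean was lower with IPI-9119 for 5 of the 6 prostate markers, and the part of that shift in the results below was not tested.

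Most of the nucleolar genes were lower with IPI-9119. The deepest falls were those of TCOF1, MYBBP1A and UBTF, all grouped with RNA polymerase I and its factors, followed by NOP14 and NCL. Modestly higher were the small snoRNP genes NHP2 and NOP10, the fibrillarin gene FBL and the subunit genes POLR1B and POLR1C. GAR1, another small snoRNP gene, was lower, and POLR1C did not pass after a correction for exonic length and GC content. Values were compared with limma on log2(normalised count + 1) over all 14437 genes with a mean of at least 10, and a gene was called at a Benjamini-Hochberg adjusted p under 0.05. Of the 40 genes, 25 fell, 5 rose and 10 did not pass. Over all genes tested, 62.8% were called, 31.4% lower and 31.3% higher. The nucleolar genes were thus called lower in 62.5% of cases and higher in 12.5%, where all genes were split evenly. They were chosen with earlier results of these data known, so this contrast is a description and not a test. The median log2 fold change was -0.37 for the 40 genes and 0.0017 for all genes.

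The falls were also large. A fall of at least 1.5-fold was called for 16 of the 40 genes, against 17.2% of all genes tested, and one of at least 2-fold for 7, against 9.27%. None of the 5 rises reached 1.5-fold. The 3 IPI-9119 libraries lay below all DMSO libraries for 25 of the 40 genes (33.9% of all genes tested) and above them for 5 (34.0% of all genes). The 25 genes that fell and the 25 with separate groups differ by 1 gene, since RRP9 fell with overlapping libraries and NOC3L had separate groups without passing the test.

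**Figure D1:**
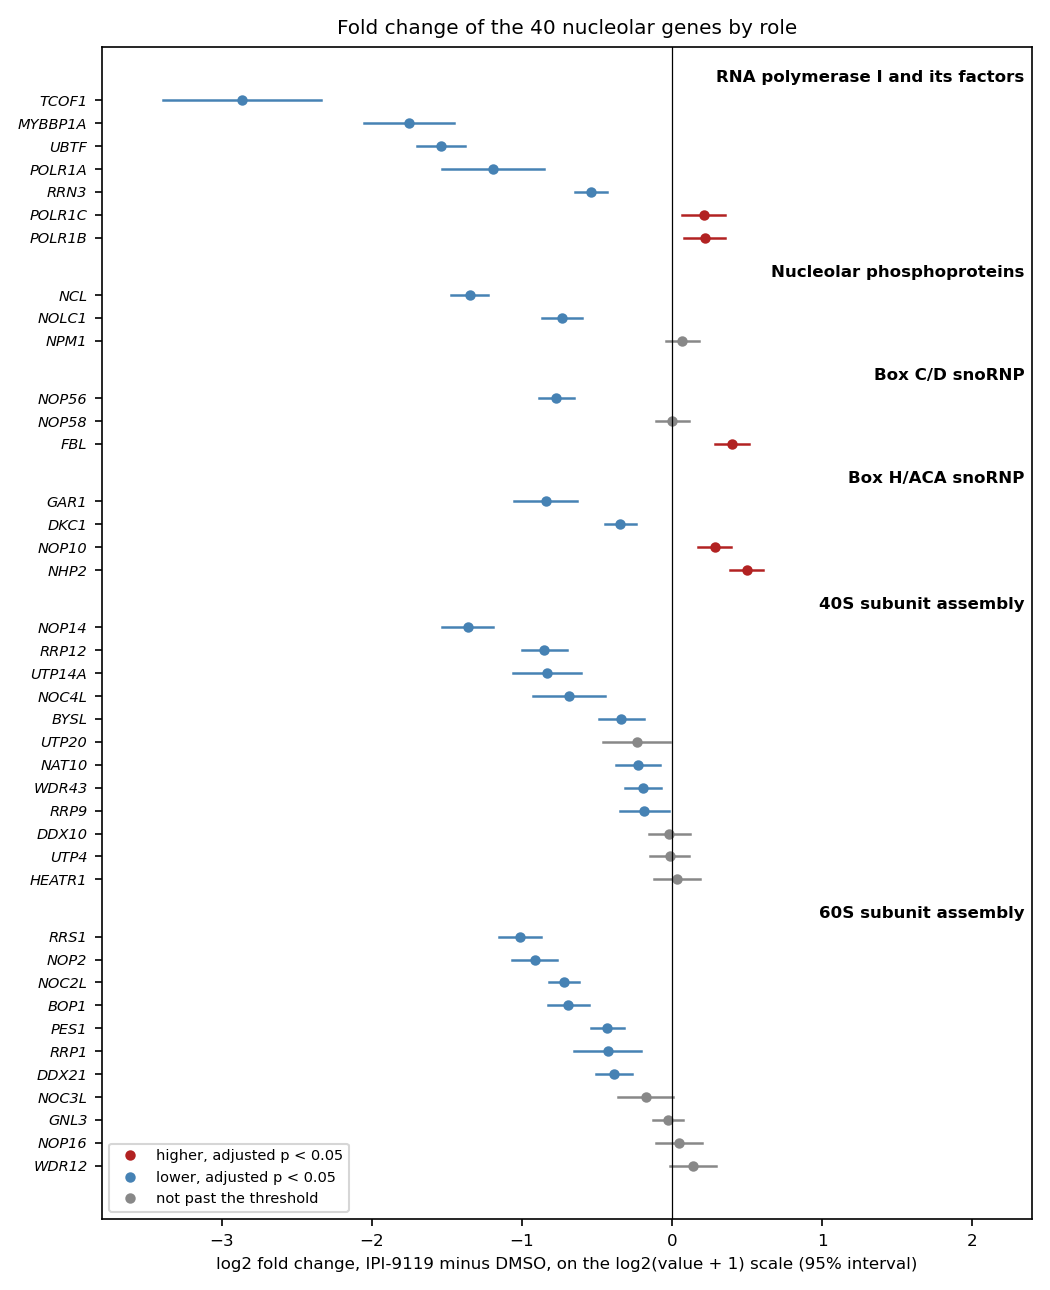
The log2 fold change of each of the 40 genes (x axis, IPI-9119 minus DMSO, on the log2(value + 1) scale) with its 95% interval from limma, grouped by role on the y axis. Blue marks the 25 genes that fell, red the 5 that rose and grey the 10 that did not pass, and TCOF1 lies farthest from 0 at -2.87.

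Among the genes of RNA polymerase I and its factors, 5 of 7 fell and 2 rose, with a median log2 fold change of -1.20. Of all genes tested, 31.4% fell and 31.3% rose. TCOF1 encodes treacle, a nucleolar phosphoprotein that takes part in transcription of ribosomal DNA and in modification of the precursor RNA. It lies on chromosome 5 (150357629 to 150400308, plus strand, ENSG00000070814; all gene positions are GRCh38, GENCODE 29). TCOF1 gave 234, 275 and 219.5 normalised counts with DMSO and 21.1, 32.7 and 48.4 with IPI-9119. Every treated library was far below every control library, and treated replicate 3 held over 2 times the count of replicate 1. The means were 243 ± 28.5 and 34.1 ± 13.7 (SD, n = 3), a 7.30-fold fall (log2 fold change -2.87, SE 0.243; limma, adjusted p 3.8e-07). Only 0.547% of all genes tested had as low or a lower fold change. This gene had 886 reads in all, the fewest of the 40 genes, so it is also among the least precisely measured.

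UBTF encodes the upstream binding factor, which coats the active ribosomal DNA repeats (chromosome 17, 44205033 to 44221626, minus strand, ENSG00000108312). It gave 1590.1, 1756 and 1594 normalised counts with DMSO and 511, 611 and 578 with IPI-9119. The groups were well separated and the replicates close to each other. UBTF fell 2.91-fold, from 1647 ± 94.5 to 567 ± 50.8 (SD, n = 3; log2 fold change -1.54, SE 0.0755; limma, adjusted p 6.6e-10). MYBBP1A, a nucleolar MYB-binding protein linked to control of ribosomal DNA transcription, gave 1142, 1253 and 1059.9 with DMSO and 265, 382 and 392 with IPI-9119. It fell 3.37-fold (log2 fold change -1.75, adjusted p 6.9e-07).

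The subunits of the polymerase itself went different ways. POLR1A, its largest subunit (chromosome 2, 86020216 to 86106155, minus strand, ENSG00000068654), gave 572, 677 and 643 normalised counts with DMSO and 207, 296 and 338 with IPI-9119. The mean went from 631 ± 53.8 to 280.0 ± 66.9 (SD, n = 3), a 2.29-fold fall (log2 fold change -1.20, SE 0.154; limma, adjusted p 4.1e-05). POLR1B, the second-largest subunit, which forms the catalytic centre with POLR1A, gave 1124, 1148 and 1273 with DMSO and 1316, 1417 and 1385 with IPI-9119. It was thus higher in all treated libraries, by 1.16-fold (log2 fold change 0.22, SE 0.0637; limma, adjusted p 0.0085). With values corrected for exonic length and GC content, POLR1A was at -0.63 and POLR1B at 0.14 (adjusted p 0.0491). POLR1C, a subunit shared with RNA polymerase III, rose as little (0.21, adjusted p 0.012). POLR1C no longer passed when DMSO replicate 2 was left out (adjusted p 0.0531) or with the corrected values (0.09, adjusted p 0.226), and exons of genes on the other strand cover 18.2% of its exonic bases. Per kilobase of exon, POLR1A stood at 0.250 ± 0.0224 of POLR1B in DMSO libraries and at 0.0951 ± 0.0204 in treated ones (SD, n = 3). RRN3, which brings the polymerase to the promoter, fell from 2934 ± 83.4 to 2015 ± 46.7 normalised counts (log2 fold change -0.54). GENCODE lists 2 pseudogenes named after RRN3, so its level carries that uncertainty. The same holds for NCL, NHP2, PES1, NOC2L and DDX10, with 2 named pseudogenes each, and for NOP56, with 3.

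**Figure D2:**
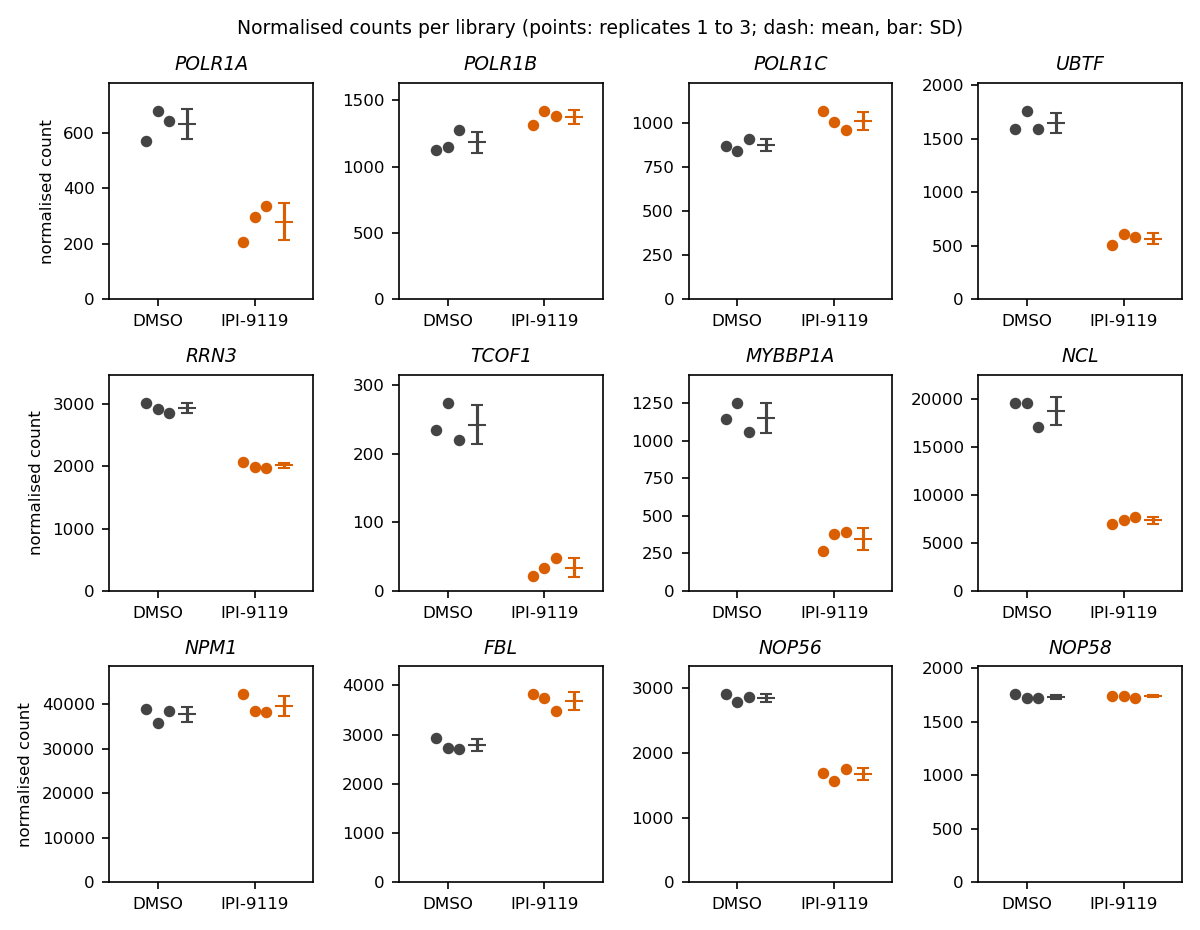
Normalised counts (y axes, each from 0) of the 7 genes of RNA polymerase I and its factors, 2 nucleolar phosphoproteins and the 3 box C/D snoRNP genes, by group (x axis). Points are the 3 libraries of each group and the dash and bar are the mean and SD. POLR1A, UBTF, RRN3, TCOF1, MYBBP1A, NCL and NOP56 are lower in every IPI-9119 library, POLR1B, POLR1C and FBL are higher in every one, and the groups overlap for NPM1 and NOP58.

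The abundant nucleolar phosphoproteins were split as well. NCL encodes nucleolin, which binds ribosomal DNA and precursor RNA and whose gene holds 3 snoRNA genes in the annotation (chromosome 2, 231453531 to 231483641, minus strand, ENSG00000115053). It gave 19616, 19558 and 17086 normalised counts with DMSO and 6933, 7394 and 7722 with IPI-9119. The groups lay far apart. NCL fell 2.55-fold, from 18753 ± 1444 to 7349 ± 396 (SD, n = 3; log2 fold change -1.35, SE 0.0589; limma, adjusted p 2.1e-10). NOLC1, which encodes the snoRNP chaperone Nopp140, fell from 5628 ± 269.5 to 3392 ± 305 (log2 fold change -0.73).

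NPM1 encodes nucleophosmin, a histone chaperone and scaffold of the outer nucleolus (chromosome 5, 171387116 to 171411137, plus strand, ENSG00000181163). It gave 39023, 35915 and 38459 normalised counts with DMSO and 42279, 38548 and 38186 with IPI-9119. The groups overlapped, and the difference did not pass (log2 fold change 0.07, 95% interval -0.04 to 0.18; limma, adjusted p 0.25). Its direction depends on the scaling: quantile scaling gave -0.09 (adjusted p 0.0229), and the length and GC correction gave -0.17 (adjusted p 0.00495). GENCODE lists 45 pseudogenes named after NPM1, and how reads shared with them were counted is not stated. The level of NCL per kilobase of exon was 0.275 ± 0.0278 of that of NPM1 in DMSO libraries and 0.103 ± 0.0109 in treated ones (SD, n = 3).

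The box C/D snoRNP guides methylation of ribosomal RNA, and its core genes moved in different directions. FBL encodes fibrillarin, the methyltransferase (chromosome 19, 39834458 to 39846414, minus strand, ENSG00000105202). It gave 2929, 2718 and 2710.3 normalised counts with DMSO and 3818, 3743 and 3478 with IPI-9119. All treated libraries were above all controls, and FBL rose 1.32-fold (log2 fold change 0.40, SE 0.0534; limma, adjusted p 1.5e-05). NOP56, a scaffold subunit (chromosome 20, 2652145 to 2658393, plus strand, ENSG00000101361), gave 2904, 2783 and 2865 with DMSO and 1695, 1569.6 and 1746 with IPI-9119. It fell 1.71-fold (log2 fold change -0.77, SE 0.0543; limma, adjusted p 2.7e-08).

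NOP58 is the partner of NOP56 in the same particle. It gave 1756, 1721 and 1719 normalised counts with DMSO and 1744, 1739.7 and 1724 with IPI-9119. The log2 fold change was 0.0032, with a 95% interval of -0.10 to 0.11, and 1736 ± 10.1 counts with IPI-9119 stood against 1732 ± 20.9 with DMSO (SD, n = 3). Per kilobase of exon the partners were level with DMSO, at a NOP56 to NOP58 ratio of 1.01 ± 0.0157. With IPI-9119 the ratio was 0.588 ± 0.0342, and 0.594, 0.551 and 0.619 in the 3 libraries. Both genes are snoRNA hosts, with 5 snoRNA genes inside NOP56 and 4 inside NOP58. After the length and GC correction NOP58 was lower (-0.26, adjusted p 0.0002) and NOP56 still more so (-0.80).

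The box H/ACA snoRNP, which turns uridines of ribosomal RNA into pseudouridine and is also part of telomerase, was split evenly, with 2 genes higher and 2 lower. All genes tested were split evenly too, with 31.3% higher and 31.4% lower. NHP2, a small core protein (chromosome 5, 178149460 to 178153967, minus strand, ENSG00000145912), gave 2791, 2619 and 2764 normalised counts with DMSO and 4018, 3812 and 3716 with IPI-9119. It rose 1.41-fold (log2 fold change 0.50, SE 0.0502; limma, adjusted p 1.0e-06), the largest rise among the 40 genes. Exons of RMND5B on the other strand cover 27.4% of the exonic bases of NHP2, and whether the counting used strand is not stated. RMND5B itself had 643 normalised counts with DMSO and 636 with IPI-9119. NOP10, the smallest core protein, rose from 2345 ± 100.2 to 2855 ± 74.6 (log2 fold change 0.28, adjusted p 0.00024).

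GAR1, the core protein that helps release the substrate RNA (chromosome 4, 109815510 to 109824740, plus strand, ENSG00000109534), gave 779, 808 and 679.6 normalised counts with DMSO and 372, 416 and 478 with IPI-9119. The groups did not overlap, and GAR1 fell 1.79-fold (log2 fold change -0.84, SE 0.0988; limma, adjusted p 4.6e-06). DKC1, the pseudouridine synthase dyskerin, fell from 3298 ± 121 to 2597 ± 57.8 (log2 fold change -0.34, adjusted p 2.9e-05). Relative to NHP2 and per kilobase of exon, GAR1 went from 0.205 ± 0.0231 to 0.0813 ± 0.0133 and DKC1 from 0.435 ± 0.0174 to 0.243 ± 0.00501 (SD, n = 3).

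For assembly of the 40S subunit, 8 of 12 genes fell, against 31.4% of all genes tested. The other 4 did not pass, and the median log2 fold change was -0.23. NOP14, which binds the early small subunit precursor (chromosome 4, 2937933 to 2963385, minus strand, ENSG00000087269), gave 1040.4, 1054 and 931 normalised counts with DMSO and 364, 405 and 406 with IPI-9119. All treated libraries were below all controls. It fell 2.57-fold (log2 fold change -1.36, SE 0.0791; limma, adjusted p 3.5e-09). Its partner NOC4L fell as well, from 280.4 ± 23.9 to 174 ± 11.8 (log2 fold change -0.68). NOP14-AS1 on the other strand covers 17.1% of the exonic bases of NOP14, and had 221 normalised counts with DMSO and 188 with IPI-9119.

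The nucleolar factor UTP14A fell from 629.8 ± 75.6 to 353 ± 39.6 normalised counts (log2 fold change -0.83), and RRP12, needed for export and maturation of subunits, from 1564 ± 54.5 to 868 ± 74.0 (-0.85). The value of RRP12 moved to -0.19 (adjusted p 0.0169) after the length and GC correction. Smaller falls were found for BYSL, which acts late in small subunit assembly (-0.34), the cytidine acetyltransferase NAT10 (-0.23) and WDR43 (-0.19), a subunit of the complex that binds the nascent precursor. The U3 snoRNP protein RRP9 was just past the threshold (-0.18, adjusted p 0.049). It missed the threshold when either DMSO replicate 1 or DMSO replicate 3 was removed (adjusted p 0.227 and 0.103), and likewise for IPI-9119 replicate 1 and IPI-9119 replicate 2 (0.0545 and 0.170). RRP9 also missed it with DESeq2 (adjusted p 0.0638), with quantile scaling (0.103) and with no trend and no robust moderation (0.117). NAT10 missed it when DMSO replicate 3 was removed (adjusted p 0.0639).

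Large scaffold proteins of the same particle did not follow NOP14. HEATR1, which works with UTP4 and WDR43 in the complex that couples transcription to processing, gave 1404, 1481 and 1638 normalised counts with DMSO and 1444, 1495 and 1686 with IPI-9119. The groups overlapped (log2 fold change 0.03, 95% interval -0.12 to 0.19). Exons of LGALS8 on the other strand, with 1071 normalised counts with DMSO and 1065 with IPI-9119, cover 23.1% of the exonic bases of HEATR1. For UTP4 the value was -0.02 (-0.15 to 0.11), and for the helicase DDX10 it was -0.02 (-0.16 to 0.12). UTP20 had 447, 504 and 614 counts with IPI-9119 against 578, 597 and 654 with DMSO (-0.24, 95% interval -0.46 to -0.01 before adjustment, adjusted p 0.0631). Without IPI-9119 replicate 3, its highest treated library, UTP20 passed (-0.36, adjusted p 0.00533).

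For assembly of the 60S subunit, 7 of 11 genes fell, against 31.4% of all genes tested. The other 4 did not pass, and the median log2 fold change was -0.43. RRS1, which helps to bring the 5S ribonucleoprotein into the large subunit (chromosome 8, 66429028 to 66430733, plus strand, ENSG00000179041), gave 1324, 1359.7 and 1269 normalised counts with DMSO and 637, 628 and 691 with IPI-9119. The groups were far apart compared with their spread. RRS1 fell 2.02-fold (log2 fold change -1.01, SE 0.0652; limma, adjusted p 1.0e-08). NOP2, a methyltransferase of large subunit RNA, fell from 1159.6 ± 63.2 to 614 ± 38.7 (-0.92). In the annotation, 54.4% of the exonic bases of NOP2 are shared with another gene on the same strand, so its level is uncertain. For RRS1 that share is 11.4%, so the limit holds for it to a lesser extent.

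BOP1, PES1 and WDR12 form 1 complex that is needed to process large subunit RNA, and its genes differed. BOP1 gave 1222, 1176 and 1225 normalised counts with DMSO and 793, 712 and 740.2 with IPI-9119 (-0.69, adjusted p 4.5e-07). PES1 fell less (-0.43, adjusted p 5.0e-06). WDR12 gave 1072, 945 and 1049 with DMSO and 1214, 1053 and 1112 with IPI-9119, overlapping groups with a log2 fold change of 0.14 (95% interval -0.01 to 0.29, adjusted p 0.104). Per kilobase of exon, BOP1 was 2.90 ± 0.131 times WDR12 with DMSO and 1.63 ± 0.0293 times with IPI-9119. After the length and GC correction BOP1 was at -0.26 (adjusted p 0.00424) and PES1 at -0.31 (adjusted p 7.3e-05). The smaller fall of PES1 thus held only without the correction, and the ratio of BOP1 to WDR12 is from uncorrected values.

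The Noc proteins, which escort the precursors out of the nucleolus, were lower for NOC2L, from 3144 ± 21.0 to 1908 ± 45.8 normalised counts (-0.72), and not past the threshold for NOC3L (-0.17, adjusted p 0.0904). The RNA helicase DDX21 fell from 10555 ± 507 to 8081 ± 586 (-0.39), and RRP1 from 443 ± 43.6 to 329 ± 37.9 (-0.43). RRP1 did not pass after the length and GC correction (-0.22, adjusted p 0.0556). GNL3, the GTPase nucleostemin, gave 5042, 5249 and 4825 with DMSO and 5003, 4922 and 4878 with IPI-9119 (-0.03, 95% interval -0.13 to 0.07), and NOP16, of which genes on the other strand cover 19.9% of the exonic bases, was also within its spread (0.05, -0.10 to 0.20). After the length and GC correction GNL3 was lower (-0.29, adjusted p 3.5e-05), as was NOC3L (-0.45, adjusted p 0.00017).

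Together the 40 genes took 0.602% to 0.620% of reads with DMSO and 0.492% to 0.498% with IPI-9119. Their summed normalised counts went from 127976 ± 1743 to 104794 ± 1083 (SD, n = 3). NCL alone went from 18753 to 7349, so it weighs heavily in that drop. Per kilobase of exon the order of levels with DMSO was led by NPM1 (9874 ± 433 normalised counts per kilobase), NOP10 (4232 ± 181), NCL (2706 ± 208) and DDX21 (2103 ± 101). At the low end stood TCOF1 (21.2 ± 2.49), POLR1A (46.7 ± 3.98) and UTP20 (60.8 ± 3.93). Neighbours such as DKC1 (785 ± 28.9) and RRS1 (772 ± 26.7), or NOP56 (528 ± 11.5) and NOP58 (525 ± 6.33), did not differ beyond their spread. Exonic length here is the union of a gene's exons, so rarely used exons lower its level per kilobase.

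The genes that fell, deeply or not, had a library pattern like that of the rest of the table. IPI-9119 replicate 1 held the lowest treated value in 17 of the 25 genes that fell and in 2725 of the 4539 genes of the whole table called lower. Without that library the log2 fold change of TCOF1 was -2.57, which was its smallest change in these refits. The members called lower numbered 23 to 26 over all 6 refits with a library left out. Genes of the whole table called lower numbered 4022 to 4456 over the same refits.

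Transcript length and base composition moved with the fold changes across the table, so they were compared for the nucleolar genes. Across the 40 genes the fold change had a Spearman correlation of -0.24 with exonic length and -0.41 with the GC content of the longest transcript, against -0.17 and -0.16 over 14386 genes with both values. These are correlations across genes from the same 6 libraries, given as a description. The 25 genes that fell had a median exonic length of 4251 bases and a median GC content of 55.0%, and the 10 that did not pass 5073 bases and 41.5%. The 5 that rose had medians of 2173 bases and 48.0%. After a spline correction of each library for both features, 28 of the 40 genes were lower and 4 higher, against 34.1% and 30.7% of the genes tested that way. The median of the 40 genes was then -0.38, and TCOF1 (-2.18), UBTF (-1.22), MYBBP1A (-1.23), NOP14 (-1.52), NCL (-1.33) and RRS1 (-1.16) were at least 2-fold lower both with and without it, while POLR1A (-0.63) was not. The correction also moved FBL (0.26), NOP10 (0.17) and NOC2L (-0.48) toward 0, and WDR43 (-0.45), RRP9 (-0.31) and DDX21 (-0.60) away from it, by over 1.5 times each.

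**Figure D3:**
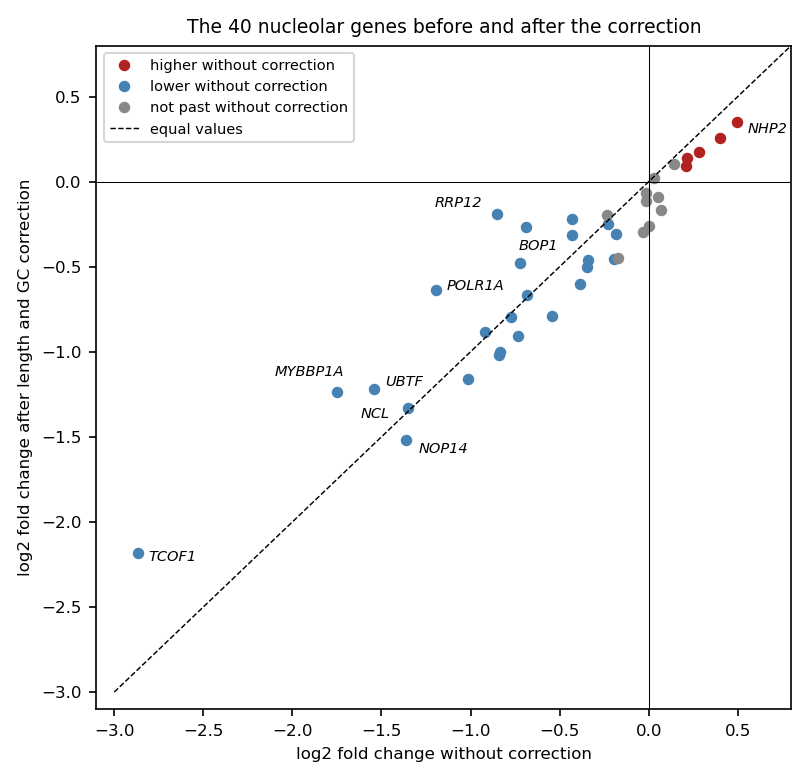
The log2 fold change of each of the 40 genes without (x axis) and with (y axis) the correction of each library for exonic length and GC content, with the line of equal values dashed and colours by the call without correction. TCOF1 moves from -2.87 to -2.18, POLR1A from -1.20 to -0.63 and RRP12 from -0.85 to -0.19, while NOP14 moves from -1.36 to -1.52.

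The start sites of the nucleolar genes, which were chosen by symbol, were searched for the MYC binding sequence named above. Many of these factors are known MYC targets, so its share among them is a description only. RefSeq windows from 250 bases before to 50 bases after the start (GRCh38.p14) were matched for 34 of the 40 genes, some with more than 1 window, and searched for CACGTG, which reads the same on both strands. It was found for 17 of the 34 genes, against 12.8% of the 10676 genes tested that have a window and 8.77% of all 27305 genes with one. Of 18 matches in all, 16 lay between positions -31 and 36, counting the first transcribed base as 1 and the base before it as -1. The motif was held by 11 of 20 genes that fell, 2 of 5 that rose and 4 of 9 that did not pass. It was thus near the start of genes that fell (NOP14, NOP2, MYBBP1A, PES1), of genes that rose (FBL, NOP10) and of genes that did not pass (UTP4, GNL3). A match is a description of the letters and not a measure of binding.

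The 120 bases before the start of 4 of these genes are shown to compare the place of the motif, in capitals, between a gene that rose (NOP10, chr15:34343137-34343256, minus strand), genes that fell (DDX21, chr10:68956527-68956646, and NAT10, chr11:34105509-34105628, both plus strand) and one that did not pass (UTP4, chr16:69132529-69132648, plus strand). Each is written from 5′ to 3′ and ends 1 base before the start. The DDX21 stretch lies before a start further downstream, and the other RefSeq window of DDX21 (chr10:68955920-68956219) held no match.
NOP10: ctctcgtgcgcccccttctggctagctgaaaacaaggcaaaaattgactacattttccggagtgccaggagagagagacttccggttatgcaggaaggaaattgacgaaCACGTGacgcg
DDX21: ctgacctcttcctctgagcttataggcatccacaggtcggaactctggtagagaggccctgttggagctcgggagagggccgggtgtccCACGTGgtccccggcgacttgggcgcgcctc
NAT10: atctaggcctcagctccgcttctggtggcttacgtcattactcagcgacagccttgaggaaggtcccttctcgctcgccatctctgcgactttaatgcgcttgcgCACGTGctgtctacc
UTP4: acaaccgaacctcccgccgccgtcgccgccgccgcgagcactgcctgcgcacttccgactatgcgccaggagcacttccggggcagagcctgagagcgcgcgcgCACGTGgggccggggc
The motif begins at -11 in NOP10, -31 in DDX21, -15 in NAT10 and -16 in UTP4. The log2 fold changes of these genes were 0.28, -0.39, -0.23 and -0.02. A motif in nearly the same place, at -11 in NOP10 and -15 in NAT10, thus went with different directions.

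Other genes of ribosome production were read from the same fit. The factors of large subunit assembly outside the 40 genes were mostly lower, with 32 of 60 lower, 6 higher and 22 not past (median log2 fold change -0.29). These shares were 53.3% lower and 10% higher, against 31.4% and 31.3% of all genes tested. The GTPase gene GNL3L fell from 194 ± 15.3 to 64.6 ± 8.55 normalised counts (-1.57) and the helicase gene DDX54 from 1214 ± 112 to 503 ± 43.0 (-1.27), while TEX10 (0.38) and NLE1 (0.26) rose. For small subunit assembly 21 of 49 were lower (42.9%), 8 higher (16.3%) and 20 not past (median -0.10). AATF (-1.09) and PDCD11 (-1.07), both parts of early small subunit particles, fell the most there, and RRP36 (0.31) and the RNA methyltransferase gene DIMT1 (0.31) rose. After the length and GC correction DIMT1 was not past the threshold (0.03), RRP36 was at 0.17, NLE1 at 0.40 and TEX10 at 0.25.

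The remaining genes of RNA polymerase I did not share the median of the named factors. Of 10, 5 were higher (50%), 3 lower (30%) and 2 not past (median 0.15), against 31.3% higher and 31.4% lower of all genes tested. The small subunit gene POLR1H (0.56) and TAF1D (0.38), of the promoter selectivity factor, rose, and TAF1C (-0.53), of the same factor, and the terminator protein gene TTF1 (-0.34) fell. With corrected values POLR1H was at 0.34 and TTF1 at -0.58. TAF1C did not pass with them (-0.03) or with DMSO replicate 2 removed (adjusted p 0.0505), and TTF1 did not pass with quantile scaling (adjusted p 0.0622). Of the 4 subunits shared by the nuclear RNA polymerases that were tested, 3 were higher, POLR2L (0.48) and POLR2K (0.46) the most, and POLR2E was lower (-0.15). The POLR2E value was 0.07 (adjusted p 0.241) after the correction, and it missed the threshold with DMSO replicate 1 removed (adjusted p 0.0682).

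RNA polymerase III, which makes 5S ribosomal RNA and transfer RNA, gave 6 higher, 8 lower and 7 not past of 21 genes (median -0.07), shares near the 31.3% and 31.4% of all genes tested. POLR3G, an alternative subunit, rose from 90.5 ± 11.9 to 234 ± 22.1 normalised counts (1.36) and POLR3K rose less (0.38). BDP1, of the initiation factor TFIIIB, fell from 1452 ± 315 to 457 ± 12.6 (-1.64) and GTF3C1, the largest subunit of TFIIIC, from 2367 ± 168 to 979 ± 109 (-1.28). After the length and GC correction GTF3C1 was at -0.53 and POLR3K at 0.17. The correction reversed BRF1, from -0.54 (limma, adjusted p 6.6e-05) to 0.93 (adjusted p 1.7e-07). The exonic length of BRF1 was 13167 bases and its longest transcript 3809 bases. How far corrected values depend on the length used was not tested. For the RNA exosome, which trims precursor RNA, 4 of 15 genes were higher, 4 lower and 7 not past (median 0.08), which is no larger a share in either direction than that of all genes tested. MPHOSPH6 (0.73) and EXOSC2 (0.57) rose, and EXOSC6 (-1.44) and the nuclease gene EXOSC10 (-0.68) fell.

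**Figure D4:**
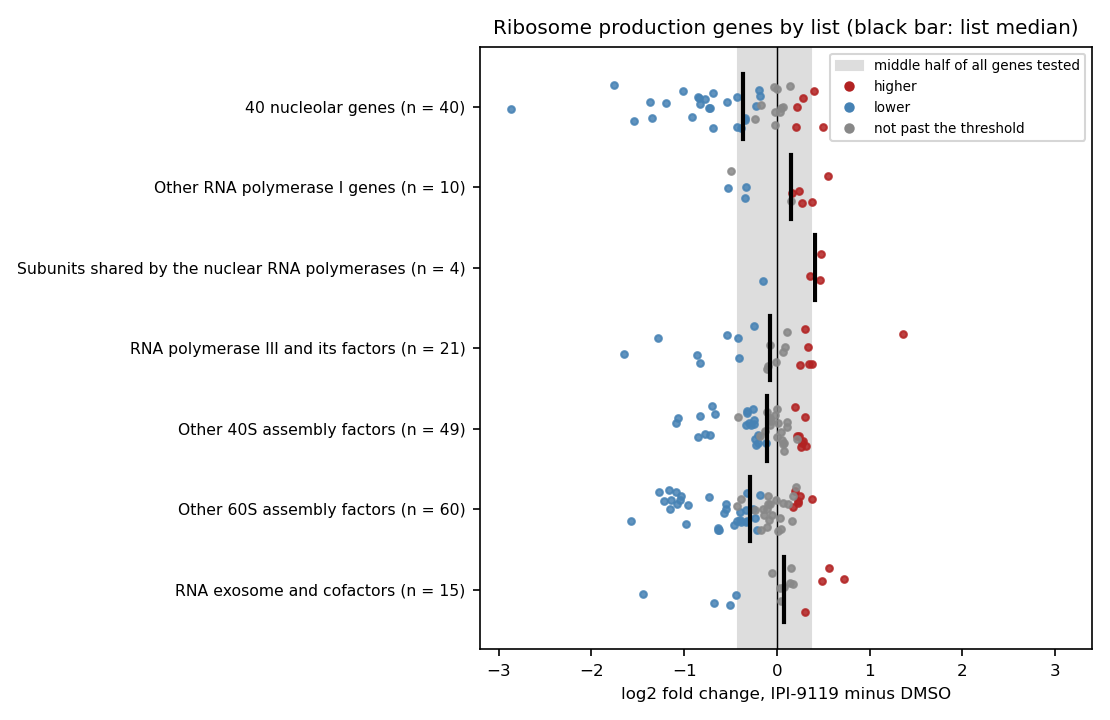
The log2 fold change (x axis, IPI-9119 minus DMSO) of single genes in the 40 nucleolar genes and in 6 further lists of ribosome production (y axis, with vertical scatter for legibility), coloured by call. The black bar is the median of each list and the grey band holds the middle 50% of all genes tested. The medians run from -0.37 for the 40 genes to 0.41 for the shared polymerase subunits.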

How the data were processed

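RNA was sequenced from 3 IPI-9119 and 3 DMSO libraries of C4-2 cells. The deposited signal of a gene is its count scaled by the authors with 1 size factor for each library, as read from the values. Per the submitters' processing notes, which give no roles, the build was GRCh38 and the tools were DESeq2, featureCounts, STAR 2.5.2b, Subread 1.5.2 and Trimmomatic 0.36. The annotation release, like the use of strand, is not given in the sources used here. All values (100%) were whole multiples of a single read within 0.01 read, which gave the reads back. Counts of libraries in a group differed beyond sampling error, with a chi-square to degrees of freedom ratio of 2.31 to 9.76.

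The test was limma 3.58.1 (R 4.3.3, trend and robust moderation, two-sided) on log2(value + 1), a scale that understates changes of low genes, over genes with a mean of at least 10. Alternatives were edgeR 4.0.16 and DESeq2 1.42.0 on the recovered reads, pseudocounts of 0.5 and 8, no filter or a mean of at least 50, TMM and quantile scaling, no trend and no robust moderation, a replicate block, leaving out each library, and a spline correction (4 degrees of freedom each, with interaction) for exonic length and GC content from GENCODE 29. Of the genes tested 99.6% had both. On simulated counts of this comparison over 14437 genes limma called 99 of the 100 genes given a 2-fold change, 90 of the 100 given a 1.5-fold change and 15 genes given none. The changed genes all had a mean of at least 50. They were far fewer than the 62.8% of genes called in the data, so these rates need not carry over.

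The members and lists were chosen with earlier results of these data known. Full statistics were given for the called member with the largest rise and the largest fall in each role, and for POLR1A, UBTF, FBL, NCL and NPM1. In further lists the 2 largest rises and falls among called genes were named. MYBBP1A, NOP58, HEATR1, WDR12, BOP1, GNL3 and UTP20 were given in every library after their values were seen. Some markers of the prostate list are not reported here and were left out of its sum.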

Additional observations from a re-analysis of the deposited data

How the results depend on the processing

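Of 720 values (40 genes under 18 alternatives), 679 kept their direction and their side of the threshold. With the direction kept, 12 lost the call and 8 gained one, and 21 changed sign. Among those 21, NPM1 passed as lower with quantile scaling (limma, adjusted p 0.0229). NPM1 and NOP58 both passed as lower with the length and GC correction (adjusted p 0.00495 and 0.0002). They also did so with the correction and the replicate block (adjusted p 0.0002 and 1.4e-05). The sign changes were in genes not past the threshold in the main fit: NPM1 (-0.0876 with quantile scaling, -0.17 with the length and GC correction, with or without the replicate block, and 0.0224 to 0.0959 over refits without a library), NOP58 (-0.00304 with TMM, -0.000264 with quantile scaling, -0.00361 with edgeR, -0.26 with the correction, -0.00221 to 0.0131 over refits without a library), DDX10 (0.0193 with quantile scaling, -0.0321 to 0.00554), NOP16 (-0.0882 with the correction, -0.0138 to 0.0931), UTP4 (-0.056 to 0.036), HEATR1 (-0.0342 to 0.0931) and GNL3 (-0.0602 to 0.000485). Of the 40 genes, 23 to 26 were lower and 4 or 5 higher over refits without a library, and 24 to 30 lower and 4 to 6 higher over the other alternatives. Over the whole table, refits without a library called 4022 to 4456 genes lower and 4148 to 4442 higher. The other alternatives called 4102 to 5133 lower and 3930 to 4797 higher. On the recovered reads edgeR called 4471 genes of the whole table higher and 4601 lower, and DESeq2 4238 and 4222. In further lists the correction, with or without the replicate block, gave 3 higher and a median of -0.0339 for other RNA polymerase I genes, 0 lower shared subunits with POLR2E at 0.0709, and 7 lower and a median of -0.106 for the exosome. It gave 5 higher of the other 40S factors without the block, as did the fit with no trend and no robust moderation. Quantile scaling gave 1 lower of the other RNA polymerase I genes. Over refits without a library, the other RNA polymerase I genes gave 5 higher, 1 to 3 lower and a median of 0.108 to 0.202, the shared subunits 0 to 1 lower, the other 40S factors 6 to 8 higher, and the exosome 4 lower and a median of 0.0509 to 0.141. The cause of these changes was not tested. Same-numbered libraries had correlations of deviations of 0.141, 0.0634 and 0.00443, the first being the highest of all pairs. DMSO replicate 2 correlated best with IPI-9119 replicate 3 (0.0985). Whether same-numbered libraries share a batch cannot be told from these values. Over the whole table the replicate block called 4797 genes higher and 4799 lower, against 4522 and 4539 without it. With the replicate block 26 of the 40 genes were lower and 6 higher, with UTP20 (adjusted p 0.0091) and WDR12 (0.0325) added. Depth limits TCOF1 most, with 886 reads over the 6 libraries.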
